A study of Homo sapiens with 5 samples.

Results

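Apicobasal polarity and epithelial trafficking were examined through 10 genes, namely CRB3, PARD3, PARD6B, LLGL1, LLGL2, SCRIB, RAB25, AP1M2, MARVELD3 and LSR. They were chosen by symbol, with earlier results of these data known. For each symbol the entry of the deposited table with the highest mean was used. Of the 10 symbols 9 had an entry, out of 37181 entries in all, and SCRIB had none under its own name. HCC827 is a human lung adenocarcinoma cell line whose EGFR carries a deletion in exon 19. The gefitinib-resistant line HCC827/GR was derived from it under stepwise doses of gefitinib, an inhibitor of the EGFR kinase, for more than 6 months, and the labels give it the same deletion. Whether HCC827/GR is a single clone is not given in the sources used here. RNA sequencing gave 3 libraries of HCC827/GR cells (replicates 1, 2 and 3) and 2 of parental, gefitinib-sensitive HCC827 cells (replicates 2 and 3). Nothing in the labels says that replicates came from separate cultures, so the p-values measure only the spread between these libraries, which may be technical.

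Epithelial cells have an apical face and a basolateral face, and 3 sets of proteins keep them apart. The Crumbs complex, anchored in the membrane by CRB3, and the PAR complex of PARD3, PARD6 and atypical protein kinase C define the apical side and the tight junction. The Scribble module of SCRIB, DLG and LLGL proteins defines the basolateral side and opposes the PAR complex. Membrane proteins reach each face through sorting machinery that epithelia express in their own versions. RAB25 is the epithelial member of the RAB11 family of small GTPases, which steer recycling endosomes to the apical surface, and AP1M2 is the epithelial medium subunit of the clathrin adaptor AP-1, which sorts cargo to the basolateral side. MARVELD3 is a membrane protein of the tight junction, and LSR (angulin-1) marks the corners where 3 cells meet. In epithelial-mesenchymal transition several polarity genes, CRB3 among them, are known targets of repressors such as ZEB1 and SNAI1, which bind the E-box CAGGTG.

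Values are FPKM, fragments per kilobase of transcript scaled to the sequenced fragments, as the authors estimated them. Changes are HCC827/GR minus HCC827 of log2(FPKM + 1), so that changes of genes with low levels come out too small. The p-values are from limma's moderated test over 16189 entries, those averaging 0.5 FPKM or more, adjusted by the Benjamini-Hochberg method over all of them. A gene is called where its adjusted p was under 0.05. All 9 members passed this filter on low values. RAB25, AP1M2 and MARVELD3 passed it only through the HCC827 libraries, since every HCC827/GR value of theirs was under 0.5 FPKM. For these genes passing the filter is therefore not independent of a lower level in HCC827/GR cells. With no filter, limma still called RAB25 and AP1M2 lower (adjusted p = 0.0166 and 0.0189), and MARVELD3 was not called. FPKM carries no read number, so the depth of the libraries is unknown. The values of a library summed to between 138854 and 167722 FPKM.

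The trafficking genes RAB25 and AP1M2, the junction gene LSR, the Crumbs gene CRB3 and the basolateral gene LLGL2 fell in HCC827/GR cells, and the PAR gene PARD3 rose. Of the 9 members, 5 were called lower in HCC827/GR cells (AP1M2, RAB25, LSR, CRB3 and LLGL2), 1 was called higher (PARD3), and 3 were not called (MARVELD3, LLGL1 and PARD6B). Over all entries tested, 5.71% were called lower and 5.26% higher. Of the 9 members 6 had a log2 fold change below 0, as did 49.8% of all entries. With a 2-fold change of FPKM + 1 and an unadjusted p under 0.05, 5 members were lower (MARVELD3 in place of LLGL2) and 0 higher, where 3.97% and 2.96% of all entries were. With the fold taken from the mean FPKM itself, which was added after the data were seen, 6 members were lower (LLGL2 and MARVELD3 both included) and 0 higher, where 7.42% and 5.68% of all entries were. The groups did not overlap in 8 members, 6 lower and 2 higher in HCC827/GR cells, where 23.4% and 22.8% of all entries had no overlap in the lower and the higher direction. The median log2 fold change was -1.14 over the 9 members and 0.00143 over all entries tested. In parental cells the order by level ran from AP1M2, LSR, RAB25, LLGL1, LLGL2, PARD6B, CRB3 and PARD3 down to MARVELD3. In HCC827/GR cells it ran from LLGL1, PARD6B, PARD3, LSR, LLGL2, CRB3, AP1M2 and MARVELD3 down to RAB25. AP1M2 went from first to seventh place and RAB25 from the third to the last.

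**Figure D1:**
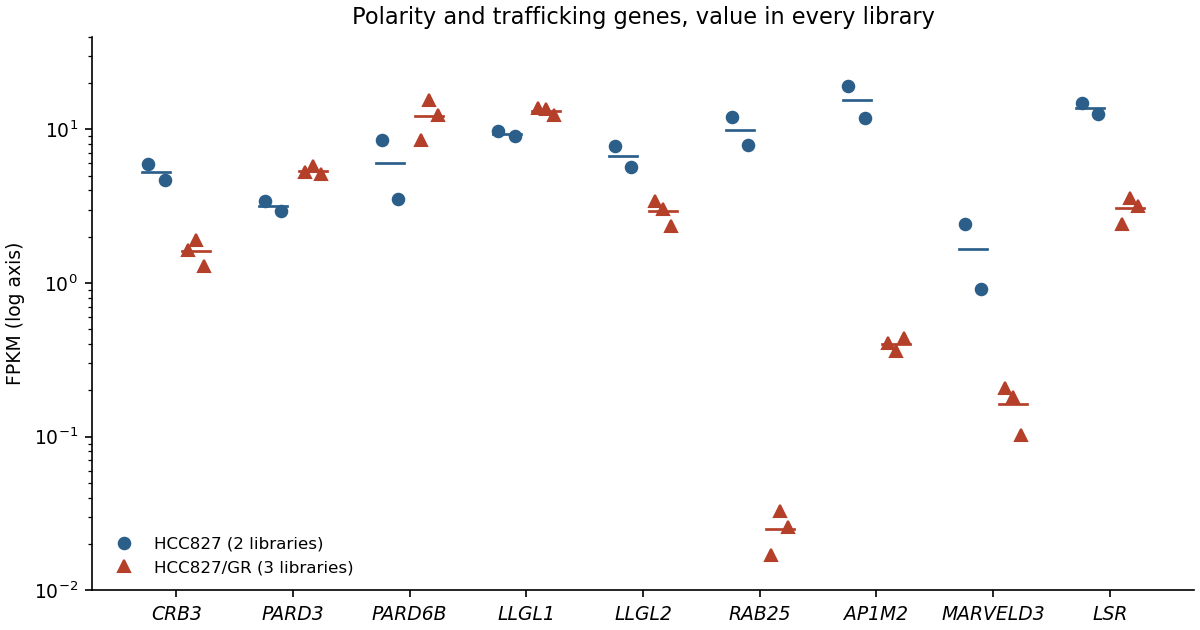
FPKM on a log axis for each of the 9 members, with circles for the 2 HCC827 libraries, triangles for the 3 HCC827/GR libraries and a bar at each group's mean. The groups are parted in every gene but PARD6B, and the widest gap is that of RAB25, with HCC827/GR values from 0.0169 to 0.0326 against 7.87 and 11.9.

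RAB25, on chromosome 1 of GRCh38 from 156061160 to 156070514, had 11.9 and 7.87 FPKM in HCC827 replicates 2 and 3. In HCC827/GR replicates 1, 2 and 3 it had 0.0169, 0.0326 and 0.0258 FPKM. The groups lay far apart, and all 3 HCC827/GR libraries were near 0. HCC827/GR minus HCC827 gave -3.39 ± 0.185 (log2 fold change ± SE; adjusted p = 0.0027), which placed RAB25 at rank 21 among all entries tested, counted from the lowest. Because the scale adds 1 FPKM, the size of this fall depends on it. Taken as plain FPKM, a scale added after the data were seen, the parental mean was 394-fold the resistant one, and with a pseudocount of 0.1 the log2 fold change was -6.29. Leaving out any single library kept the call, with log2 fold changes from -3.66 to -3.11 and adjusted p from 0.0213 to 0.0272.

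AP1M2, on chromosome 19 from 10572671 to 10587315, had the highest level of the 9 members in parental cells. It had 19.2 and 11.8 FPKM in the HCC827 libraries and 0.405, 0.361 and 0.44 FPKM in the HCC827/GR libraries. The resistant libraries lay within a narrow band and the parental ones differed more, with replicate 2 the higher. HCC827/GR minus HCC827 gave -3.52 ± 0.213 (log2 fold change ± SE; adjusted p = 0.00349), at rank 19 from the lowest, and the mean FPKM was 38.6-fold lower in HCC827/GR cells. Leaving out any single library gave values from -3.85 to -3.19, all of them called.

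The starts of RAB25 and AP1M2 are shown because both genes fell to near 0 and because their start regions hold the E-box that ZEB1 and SNAI1 recognise. The sequences are RefSeq's on GRCh38.p14, the 250 bases before the start site, 5′ to 3′ on the strand of the gene, with CAGGTG or its reverse complement CACCTG in capitals.
RAB25 (chr1:156060910-156061159, plus strand): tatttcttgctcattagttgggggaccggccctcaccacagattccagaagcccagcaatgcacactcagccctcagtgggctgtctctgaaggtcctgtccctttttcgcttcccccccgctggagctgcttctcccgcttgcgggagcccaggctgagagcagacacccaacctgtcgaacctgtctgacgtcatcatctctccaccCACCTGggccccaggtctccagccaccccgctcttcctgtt
AP1M2 (chr19:10587313-10587562, minus strand): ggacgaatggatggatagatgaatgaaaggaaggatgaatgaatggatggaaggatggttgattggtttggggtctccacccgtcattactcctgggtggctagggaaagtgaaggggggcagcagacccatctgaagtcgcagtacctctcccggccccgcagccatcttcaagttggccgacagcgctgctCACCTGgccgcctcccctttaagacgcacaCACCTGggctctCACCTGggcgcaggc
A short window shows a second match of RAB25, just after its start site:
RAB25 window downstream of the start (chr1:156061191-156061208): caccccCACCTGccagag

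CRB3, on chromosome 19 from 6463777 to 6467221, encodes the membrane anchor of the epithelial Crumbs complex. It had 5.90 and 4.67 FPKM in the HCC827 libraries and 1.63, 1.89 and 1.29 FPKM in the HCC827/GR libraries. Every resistant library was below the parental ones, by a smaller margin than for RAB25 or AP1M2. HCC827/GR minus HCC827 gave -1.27 ± 0.155 (log2 fold change ± SE; adjusted p = 0.0145), a mean FPKM 3.29-fold lower. The call was lost without HCC827/GR replicate 1 (adjusted p = 0.0602), HCC827 replicate 2 (0.0858) or HCC827 replicate 3 (0.059), with a log2 fold change between -1.41 and -1.13. The region before the CRB3 start used by RefSeq holds 5 of the same matches. The first 193 of its 250 bases are also exon of a longer CRB3 transcript in GENCODE, so only short windows are shown, with positions counted from the start site and the matches in capitals.
CRB3 window at -234 to -217 (chr19:6464037-6464054): gcaatgCAGGTGtaaggt
CRB3 window at -214 to -197 (chr19:6464057-6464074): ccctcaCACCTGcgcgct
CRB3 window at -153 to -136 (chr19:6464118-6464135): ccgttaCAGGTGcgccca
CRB3 window at -95 to -78 (chr19:6464176-6464193): gaggctCAGGTGcacaag
CRB3 window at -66 to -49 (chr19:6464205-6464222): ctctccCAGGTGagtgac

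Promoter windows of 300 bases (250 before and 50 after the start) were at hand for 5 members. The search was for CAGGTG on both strands, which finds CACCTG as the same site. CRB3 held 5 matches, AP1M2 held 3 and RAB25 held 2. LLGL1, which was not called, and LSR, which fell, held none. All 250 bases before the RefSeq start of LSR are exon of LSR in GENCODE, whose annotated gene starts farther upstream, so the region before that start was not searched. Of all 35116 RefSeq promoter windows of this length, 20.6% held at least 1 match, 3.49% at least 2, 0.635% at least 3 and 0.0940% at least 5. A match is a run of letters and not a measured binding site, and no match says only that these letters are not in the window. Of the repressors that recognise this E-box, ZEB1 had 1.77 and 2.69 FPKM in the HCC827 libraries and 4.46, 4.88 and 4.59 FPKM in the HCC827/GR libraries (log2 fold change 0.82, adjusted p = 0.0372). ZEB2 had 0.219 and 0.259 against 1.51, 1.22 and 1.45 FPKM (0.95, adjusted p = 0.0173). Both rose, and their levels did not overlap between the groups. ZEB2 passed the filter on low values only through the HCC827/GR libraries, so passing it is not independent of its rise. With each library left out, ZEB1 was called only without HCC827 replicate 3 (adjusted p from 0.0460 to 0.109) and ZEB2 in 0 of 5 (0.0575 to 0.0831). SNAI1 had 2.26 and 2.59 against 1.49, 1.64 and 1.90 FPKM and was not called (-0.36, adjusted p = 0.138). SNAI2 had 1.34 and 6.07 against 12.9, 12.3 and 3.31 FPKM and was not called (adjusted p = 0.374), and HCC827/GR replicate 3 lay between the parental libraries. The part of these factors in the members' levels was not tested.

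**Figure D2:**
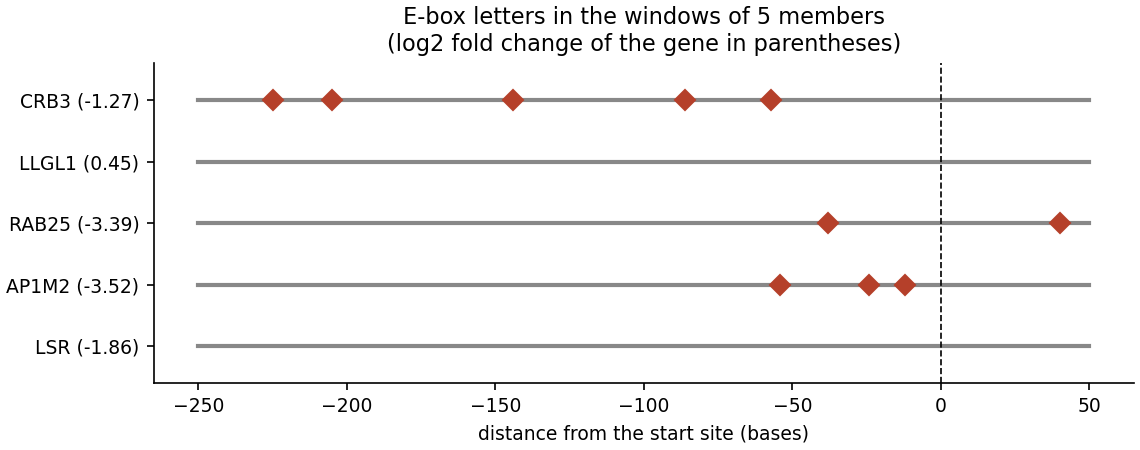
Distance in bases from the RefSeq start site (dashed line) of each E-box match, as diamonds on a line for the window of each of the 5 members with a sequence at hand. CRB3 holds 5 matches, AP1M2 3 and RAB25 2, and the windows of LLGL1 and LSR hold none; the numbers in parentheses are log2 fold changes.

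Of the junction genes, LSR lies on chromosome 19 from 35248330 to 35267964. It had 14.8 and 12.6 FPKM in the HCC827 libraries and 2.43, 3.59 and 3.17 FPKM in the HCC827/GR libraries, with no overlap. HCC827/GR minus HCC827 gave -1.86 ± 0.163 (log2 fold change ± SE; adjusted p = 0.00793), and the mean FPKM was 4.47-fold lower. Without HCC827 replicate 2 the adjusted p was 0.0608 and the log2 fold change -1.75. A second entry named LSR, which holds no Ensembl transcript, had 1.02 and 0.765 against 1.51, 1.43 and 1.07 FPKM and was not called (adjusted p = 0.27).

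MARVELD3, on chromosome 16 from 71626161 to 71642114, had the lowest parental level of the members. It had 2.42 and 0.918 FPKM in the HCC827 libraries and 0.207, 0.181 and 0.103 FPKM in the HCC827/GR libraries. All resistant values lay below both parental ones, but the parental libraries differed widely from each other, with replicate 2 the higher. MARVELD3 was not called (log2 fold change -1.14, SE 0.278, adjusted p = 0.0715). The direction was the same with every library left out that still allowed a test. It was called without HCC827 replicate 3 (-1.56, adjusted p = 0.0396), and without HCC827 replicate 2 its mean fell under the filter. In GENCODE, 18.1% of the exon bases of MARVELD3 are also exon of another gene (PHLPP2 or AC009097.2), so part of its reads could belong to these.

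The basolateral genes split. LLGL1 and LLGL2 are both human counterparts of the fly gene lethal giant larvae, and both lie on chromosome 17, from 18225587 to 18244875 and from 75525080 to 75575208. LLGL2 had 7.73 and 5.70 FPKM in the HCC827 libraries and 3.39, 3.05 and 2.35 FPKM in the HCC827/GR libraries, with a change of -0.97 ± 0.181 on the log2 scale (SE; adjusted p = 0.0386). LLGL1 had 9.68 and 9.03 against 13.7, 13.5 and 12.4 FPKM, with a change of 0.45 ± 0.0948 on the log2 scale (SE; adjusted p = 0.0503). Neither gene overlapped between the groups, in opposite directions, and LLGL1 just missed the threshold. The call for LLGL2 was lost without any one of the 5 libraries, with adjusted p from 0.0836 to 0.157 and log2 fold changes from -1.16 to -0.78. For LLGL1 the adjusted p was under 0.05 in 2 of 14 alternatives and reached 0.0481 at the lowest. As a share of the summed LLGL1 and LLGL2 level, LLGL2 made up 44.4% and 38.7% in the HCC827 libraries and 19.8%, 18.4% and 16.0% in the HCC827/GR libraries.

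SCRIB, the scaffold of the same module, lies on chromosome 8 from 143790920 to 143815379. No entry bears its name, but 8 of the 12 transcripts of an entry named MIR937, a microRNA gene inside SCRIB, are SCRIB transcripts. This entry was looked up after the values were seen and is not one of the 9 members. It had 9.36 and 10.2 FPKM in the HCC827 libraries and 9.16, 9.01 and 9.15 FPKM in the HCC827/GR libraries. The groups were nearly level, with a change of -0.09 ± 0.0869 on the log2 scale (SE; adjusted p = 0.562).

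Of the PAR genes, PARD3 rose and PARD6B was not called. PARD3, the scaffold of the complex, lies on chromosome 10 from 34109560 to 34815325. It had 3.40 and 2.94 FPKM in the HCC827 libraries and 5.25, 5.77 and 5.13 FPKM in the HCC827/GR libraries, with no overlap. HCC827/GR minus HCC827 gave 0.62 ± 0.103 (log2 fold change ± SE; adjusted p = 0.0309). The call was lost without any one of the 5 libraries, with adjusted p from 0.0710 to 0.114 and log2 fold changes from 0.54 to 0.69. A second entry named PARD3, with no Ensembl transcript, had 0.0209 and 0.0207 against 1.80, 1.37 and 0.924 FPKM (adjusted p = 0.0304). This entry passed the filter only through the HCC827/GR libraries, so passing it is not independent of its higher level there.

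PARD6B, the adaptor that links PARD3 to atypical protein kinase C, lies on chromosome 20 from 50731544 to 50756795. It had 8.53 and 3.49 FPKM in the HCC827 libraries and 8.51, 15.6 and 12.3 FPKM in the HCC827/GR libraries. HCC827/GR replicate 1 lay just below HCC827 replicate 2, so the groups overlapped. The change was 0.97 on the log2 scale (SE 0.407, 95% interval from -0.09 to 2.03, adjusted p = 0.215). It was 1.51 without HCC827 replicate 2 and 0.43 without HCC827 replicate 3, and was called in none of the 14 alternatives.

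Parental replicate 2 had a higher value than parental replicate 3 in all 9 members, where 50.4% of all entries tested did. On the log2(FPKM + 1) scale this difference between the parental libraries was between 0.09 for LLGL1 and 1.09 for PARD6B, with a median of 0.38 over the members and 0.00275 over all entries. Its part in the members' results was not tested beyond the values without each of the libraries given here. In the 4 E-box repressors parental replicate 2 was instead below parental replicate 3 each time, with a median difference of -0.28.

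The ratio of each member to a paralogue within a library does not depend on the scaling between libraries, apart from the 1 FPKM added to both. In all 10 such pairs were compared, and 3 libraries against 2 allow no exact two-sided permutation p below 0.1, or 0.125 after adjustment over the 10 pairs. AP1M2 was set against AP1M1, the ubiquitous medium subunit. AP1M1 had 1.55 and 2.34 FPKM in the HCC827 libraries and 2.91, 2.76 and 3.19 FPKM in HCC827/GR, and was not called (log2 fold change 0.44, adjusted p = 0.149). The log2 ratio of AP1M2 to AP1M1 was 2.46 ± 0.741 (SD, n = 2) in HCC827 and -1.49 ± 0.0395 (SD, n = 3) in HCC827/GR cells (exact permutation p = 0.1). AP1M2 thus made up 92.5% and 83.5% of the summed level of both subunits in the parental libraries and 12.2%, 11.6% and 12.1% in the resistant ones.

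RAB25 was set against RAB11A and RAB11B, its relatives in most cell types. Neither was called (RAB11A log2 fold change 0.47, adjusted p = 0.72; RAB11B -0.56, adjusted p = 0.228). RAB11A varied strongly between libraries of the same cells, with 3.66 and 11.4 against 14.3, 14.3 and 4.01 FPKM. RAB25 made up 33.5% and 19.7% of the summed level of these RAB11 genes in the HCC827 libraries and 0.0513%, 0.124% and 0.172% in the HCC827/GR libraries. The difference in the mean log2 ratio, HCC827/GR minus HCC827, was -2.83 against RAB11B and -3.86 against RAB11A, with no overlap in either pair (exact permutation p = 0.1 each).

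LLGL2 against LLGL1 shifted from -0.44 ± 0.205 (SD, n = 2) to -1.86 ± 0.126 (SD, n = 3) on the log2 scale, again with no overlap. PARD6B against PARD6G shifted the other way, by 1.23, with no overlap, and PARD6B against PARD6A by 0.74 with overlap (exact permutation p = 0.6). The difference from PARD6G was 0.67 without HCC827 replicate 3 and 1.79 without HCC827 replicate 2, and the difference from PARD6A was 0.11 without HCC827/GR replicate 2 and 0.25 without HCC827 replicate 3, against 1.23 without HCC827 replicate 2. PARD6A and PARD6G were not called (adjusted p = 0.812 and 0.273). PARD3B, the relative of PARD3, had 0.0748 and 0.0243 against 1.69, 1.94 and 1.21 FPKM and rose by 1.31 on the log2 scale (adjusted p = 0.0167). It passed the filter only through the HCC827/GR libraries, so passing it is not independent of this rise. The log2 ratio of PARD3 to PARD3B differed by -0.69 with no overlap. The ratio of MARVELD3 to MARVELD2, its relative at the corners between cells, differed by -0.01 between the groups, which overlapped (exact permutation p = 1). With a pseudocount of 0.1 this difference was -1.14. MARVELD2 itself fell, from 5.09 and 4.53 FPKM to 1.49, 2.11 and 1.43 FPKM (log2 fold change -1.12, adjusted p = 0.0176). With each library left out, MARVELD2 was called only without HCC827/GR replicate 2, and its adjusted p ran from 0.0323 to 0.106. LSR against ILDR1 and CRB3 against CRB2 also parted the groups, but ILDR1 did not exceed 0.403 FPKM and CRB2 did not exceed 0.158 FPKM in any library, so these ratios rest on LSR and CRB3. With a pseudocount of 0.1 the LSR to ILDR1 difference shrank to -0.12, since ILDR1 was listed at 0 in all 3 HCC827/GR libraries.

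**Figure D3:**
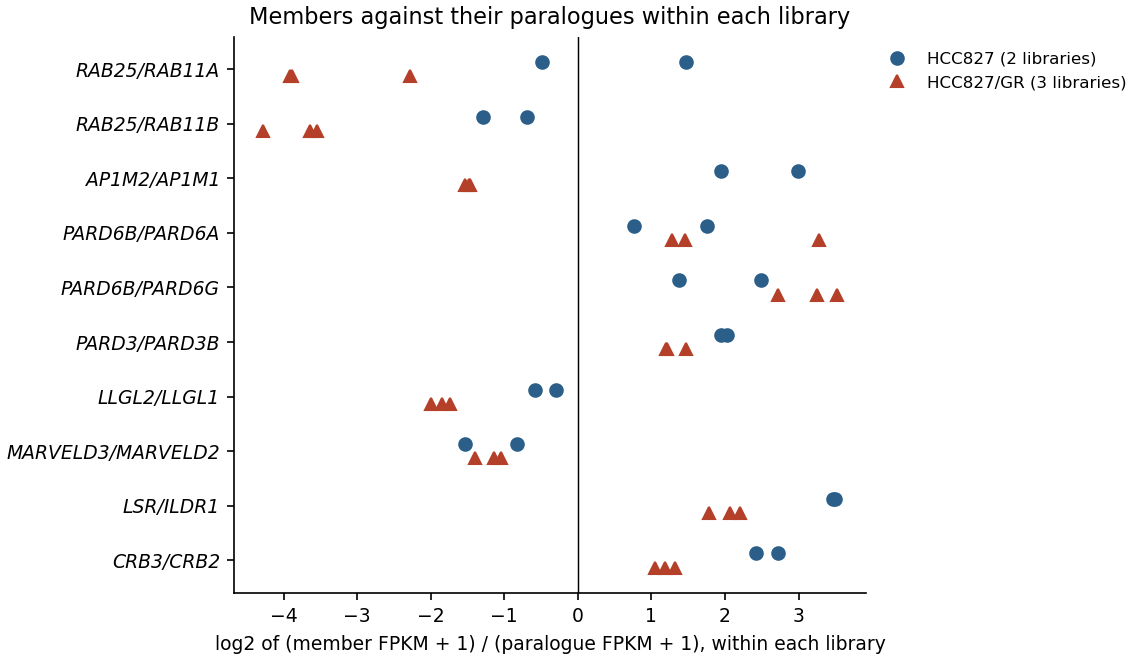
The log2 ratio of (FPKM + 1) of each member to that of a paralogue, within each library, with circles for the 2 HCC827 and triangles for the 3 HCC827/GR libraries. AP1M2/AP1M1 lies between 1.94 and 2.99 in parental and between -1.54 and -1.47 in resistant libraries, while PARD6B/PARD6A and MARVELD3/MARVELD2 overlap.

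A wider list of 59 polarity and trafficking genes, without the members, was examined beside them, and 55 had an entry under their own or an older symbol. RAB8A, RAB3IP, AP1B1 and AP1G2 had none, because their transcripts are joined to a neighbour's in entries of another name. Of the 44 that passed the filter, 2 were called lower (4.55%) and 3 higher (6.82%), close to the shares of 5.71% and 5.26% among all entries, and the median log2 fold change was -0.04. The genes called were DLG3 and MARVELD2, lower, and PARD3B, RAB11FIP1 and RAB11FIP3, higher. RAB11FIP1 and RAB11FIP3, effectors that bind RAB11 and RAB25, lay outside the rule for named genes and were named after their values were seen (log2 fold changes 0.61 and 0.52, adjusted p = 0.0448 and 0.0463). DLG3, a scaffold related to DLG1 of the Scribble module, had 8.68 and 5.13 FPKM in the HCC827 libraries and 0.584, 1.60 and 0.846 FPKM in the HCC827/GR libraries (log2 fold change -1.97, adjusted p = 0.0251). With each library left out, DLG3 was called only without HCC827/GR replicate 2 (adjusted p from 0.0474 to 0.118) and PARD3B only without HCC827/GR replicate 3 (0.0386 to 0.0880). RAB11FIP1 and RAB11FIP3 were then called in 0 of 5 (adjusted p from 0.0672 to 0.17 and from 0.0810 to 0.168).

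By machinery, 0 of the 5 other AP-1 subunits tested and 0 of the 9 exocyst genes, which tether vesicles at the plasma membrane, were called by limma and 2 in each set had an unadjusted p under 0.05, as did 27.2% of all entries. The exocyst log2 fold changes ran from -0.13 to 0.50. Of the RAB11 recycling genes, 10 were tested, with 2 called higher, where 5.26% of all entries were, and 0 lower. Of the other Crumbs genes and partners, 3 were tested, with log2 fold changes from -0.75 to -0.42, and 0 were called by limma, with 1 at an unadjusted p under 0.05, while 4 stayed below the filter. Of the 6 other PAR genes tested, 1 (PARD3B) was called higher and 0 lower. Of the 5 tested genes of the lateral kinases MARK and STK11 and their partners, 0 were called by limma and 1 (CAB39) had an unadjusted p under 0.05. CAB39 had 41.8 and 32.7 FPKM against 8.89, 17.6 and 17.0 FPKM in HCC827/GR (log2 fold change -1.35, adjusted p = 0.0709), with no overlap. With a 2-fold change of FPKM + 1 and an unadjusted p under 0.05, 3 genes of the wider list were lower, CAB39 among them, and 1 higher. Of all entries 3.97% and 2.96% were.

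**Figure D4:**
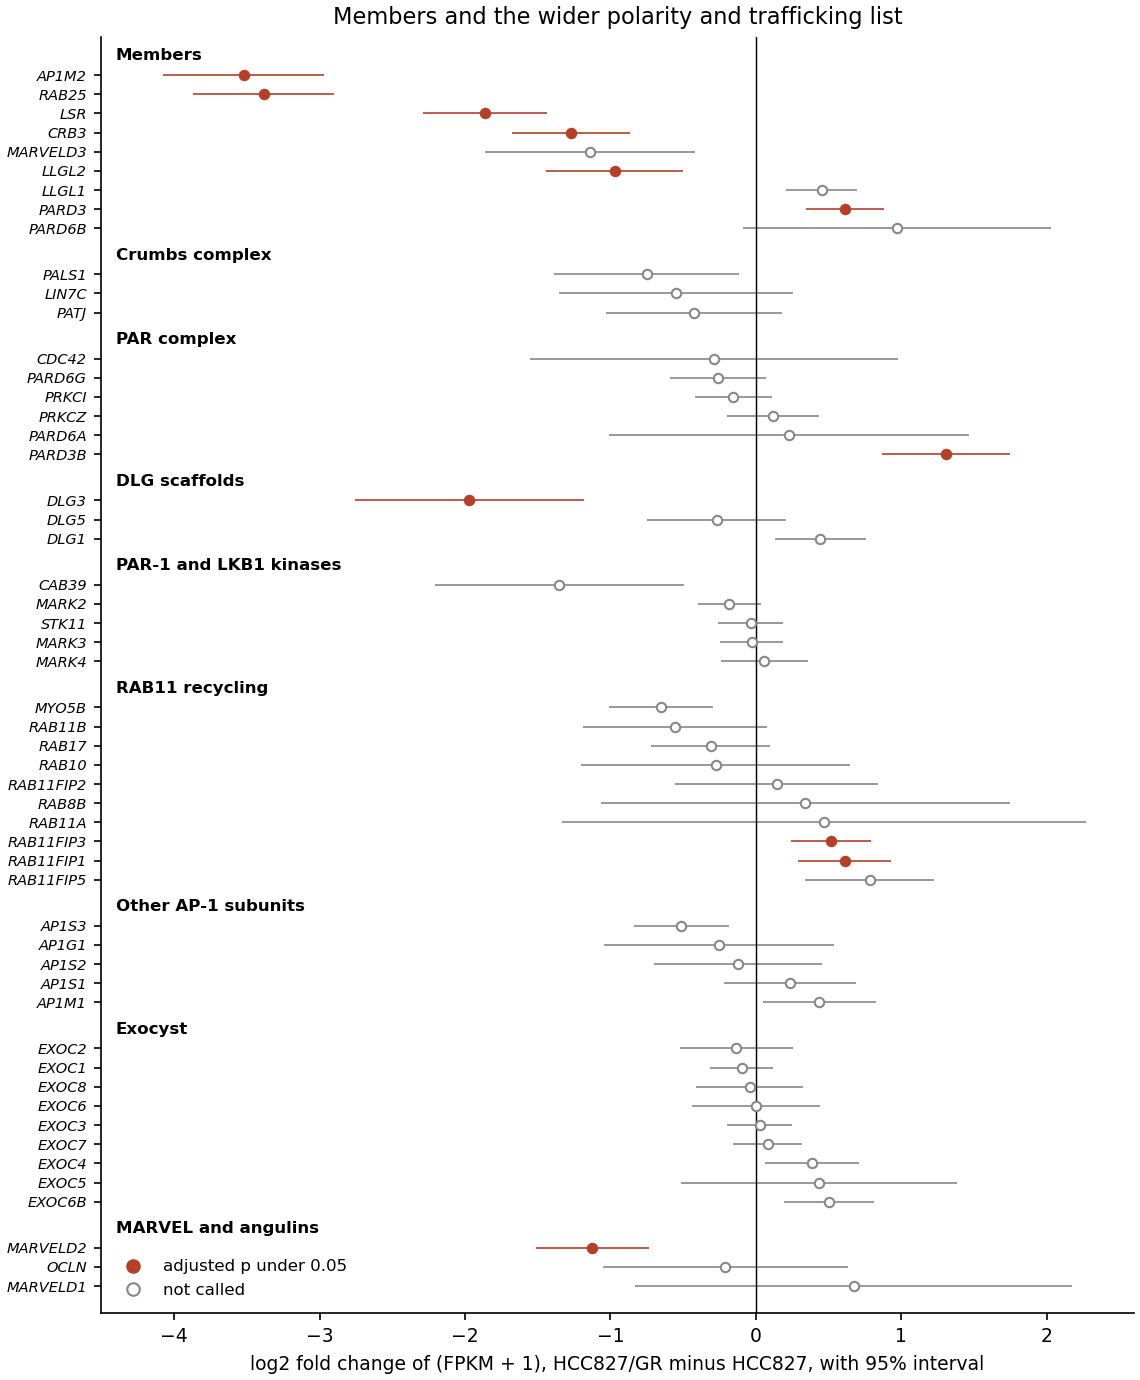
Log2 fold change of (FPKM + 1), HCC827/GR minus HCC827, with its 95% interval from limma, for the 9 members and the 44 tested genes of the wider list, ordered within each module. Filled points had an adjusted p under 0.05; among the wider list these are DLG3, MARVELD2, PARD3B, RAB11FIP1 and RAB11FIP3.

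The epithelial label of the cells was checked with 6 markers, of which KRT7 had no entry of its own. Of the 20 transcripts of an entry named KRT86, 13 are KRT7 transcripts. This joined entry had 77.7 and 83.1 FPKM in HCC827 against 28.7, 28.8 and 23.7 FPKM (log2 fold change -1.54, adjusted p = 0.00647). The summed level of the other 5 was between 1038 and 1166 FPKM in HCC827 and between 441 and 570 FPKM in HCC827/GR libraries. EPCAM, KRT18, KRT19 and MUC1 were called lower, and KRT8 was not (adjusted p = 0.101). Their part in the members' results was not tested. KRT18 still had at least 219 FPKM in every HCC827/GR library. Markers of fibroblasts summed to between 2.66 and 3.29 FPKM in any library, chiefly from PDGFRA, whose entry is joined with FIP1L1, and DCN did not exceed 0.0259 FPKM. Of the blood cell markers, PTPRC, CD14 and LYZ did not exceed 0.267 FPKM, CD3E had no entry, and the CD68 entry is joined with EIF4A1. Of the endothelial markers, CDH5, VWF, KDR, TEK and CLDN5 did not exceed 0.083 FPKM. The PECAM1 entry used holds no Ensembl transcript, with 4.34 and 3.32 FPKM in the HCC827 libraries and 0 listed in the others (called lower). This entry passed the filter only through the HCC827 libraries. In bulk RNA, fewer cells that express a gene and less of its RNA in each cell cannot be told apart.

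**Figure D5:**
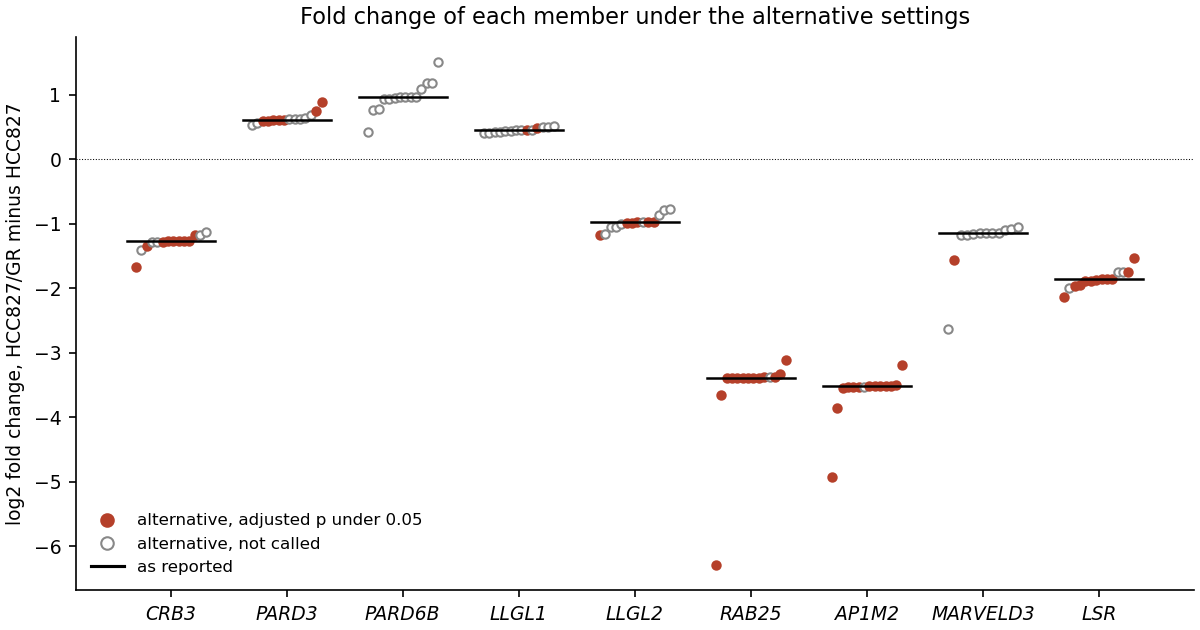
Log2 fold change of each member under up to 14 alternative settings (points), with the reported value as a black line; filled points had an adjusted p under 0.05. The sign held for all 9 members in every alternative, RAB25 and AP1M2 were called in 13 of 14, and PARD6B in none.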

How the data were processed

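The authors trimmed reads with Cutadapt, checked them with FastQC, mapped them with Bowtie2 and TopHat2, and assembled transcripts with StringTie, and they estimated the deposited FPKM values with StringTie and Ballgown. The submitters' processing notes name the build hg18, and versions are not given in the sources used here. The paper describes a paired-end mRNA library and the labels a single-end small-RNA library. One further FPKM column matched no labelled sample and was not used.

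Positions came from GENCODE release 29 (GRCh38), in which 135164 of the 135299 Ensembl transcripts in the table were found. Counting is not stated to use strand, so reads of overlapping genes could not be told apart here.

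HCC827/GR (n = 3) was compared with HCC827 (n = 2) with limma 3.58.1 in R 4.3.3 (two-sided, lmFit and eBayes, variance trend fitted), after adding 1 FPKM and taking log2, over 16189 entries averaging 0.5 FPKM or more. Ratios to paralogues used an exact permutation test. A 2-fold change either way with an unadjusted p under 0.05, after the study's rule, was an alternative, beside other pseudocounts, filters, scalings, covariates and left-out libraries. Named were all members, their paralogues, 4 E-box repressors and genes of the wider list with adjusted p under 0.05 and a 2-fold change. RAB11FIP1, RAB11FIP3, CAB39 and single marker genes were named after their values were seen. Steps were tested on simulated data. The members and lists were chosen with earlier results of these data known. Python 3.11.15, pandas 2.3.3 and matplotlib 3.10.9 were used for tables and plots.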

Additional observations from a re-analysis of the deposited data

How the results depend on the processing

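The fall of RAB25 and AP1M2 was called in 13 of 14 alternatives, that of LSR in 11, of CRB3 in 9 and of LLGL2 in 6, and the rise of PARD3 in 7; no member changed sign. With the replicate number as a block (replicate block), which leaves 1 residual degree of freedom, 0 members, 0 genes of the wider list and 0 of all entries were called by limma in either direction, while all 9 members and 3545 of the 16189 entries had an unadjusted p under 0.05. Deviations of same-numbered libraries from their group means were hardly correlated (0.0328 for replicate 2 and 0.0147 for replicate 3). With only 2 HCC827 libraries, their deviations mirror each other, so this check cannot decide whether the numbers pair the libraries. The library-size covariate is no sequencing depth, which is unknown here. It is the sum of log2(FPKM + 1) over the entries above 0 and below the upper quartile of each library. With the library-size covariate, 2 members were called lower and 0 higher, 0 genes of the wider list either way, and 77 and 68 of all entries. With a pseudocount of 0.1 the members' median was -1.67 and 2 were called higher, as with a mean of at least 1 FPKM. A 2-fold change with an unadjusted p under 0.05 gave 5 members lower and 0 higher on FPKM + 1, and 6 and 0 on FPKM, an alternative added after seeing the data. The wider list had 1 gene called higher with no filter or no trend. With a pseudocount of 0.1 the log2 ratios to paralogues differed by -6.82 for RAB25/RAB11A, -5.70 for RAB25/RAB11B, -5.52 for AP1M2/AP1M1 and -2.77 for PARD3/PARD3B.

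With each library left out in turn, between 2 (without HCC827 replicate 2) and 4 members were called lower and 0 higher. The wider list had 0 to 2 lower and 0 to 1 higher, and all entries 248 to 434 lower and 181 to 450 higher, against 924 and 851 with all 5 libraries. The members' median ran from -1.41 to -0.95. A lone HCC827 library was then assumed to vary like the others. With no filter 60.2% of the calls among all entries were lower, against 52.1%. FPKM carries no depth, so no counting error can be given for values near 0.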

Other observations

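Among the genes of the table with a RefSeq promoter window and a mean of at least 0.5 FPKM, 29 held 3 or more CAGGTG matches, CRB3 and AP1M2 among them. Of these 29, 8 were called lower in HCC827/GR cells (27.6%) and 2 higher (6.90%), with a median log2 fold change of -0.31. The 8 include CRB3 and AP1M2. Of the 7372 genes with no match, 4.38% were called lower and 6.14% higher, with a median of 0.04. Genes with 1 match (1405) had 7.33% lower and those with 2 (195), RAB25 among them, had 10.3% lower. These shares are a description chosen after the members' windows were seen, and the members that prompted it were left in. No test was made, and base composition and promoter type were not compared.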
